A study of Solenopsis invicta with 64 samples.

Results

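LOC105203994 and LOC105195107 are genes of Solenopsis invicta, the red imported fire ant, that the RefSeq gene table of assembly UNIL_Sinv_3.0 lists under the synonym OBP, for odorant-binding protein. They were taken by symbol from the count files and are 2 of the 15710 genes counted in each file. Odorant-binding proteins are small soluble proteins that insects secrete into the fluid around their sensory neurons. There they bind odour molecules that dissolve poorly in water and carry them to the receptors. Members of the family are also made in tissues without olfactory neurons, where they carry other ligands. In this ant the family is best known through Gp-9, an odorant-binding protein gene of the supergene that goes with colony queen number, which is not analysed here. The gene table places LOC105203994 on chromosome 6 and LOC105195107 on chromosome 5, and neither is the chromosome that carries the supergene.

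RNA was sequenced from brain and ovary separately in 32 gynes, which are unmated winged queens, labelled reproductively mature and caught in the field when mating flights took place. Per the labels, each library came from 1 brain or 1 ovary, and there were 4 groups of 8 animals. Those of monogyne colonies, where 1 queen lays eggs, were all SB/SB for the supergene variants SB and Sb. Those of polygyne colonies, where several queens do, were SB/SB, SB/Sb or Sb/Sb. Brains and ovaries were extracted with different kits, so kit and tissue cannot be told apart. The ovary library of the polygyne SB/SB gyne 104D held 73573 counts, none of them in either gene, and was left out. The other 63 libraries held 9.465 to 26.95 M counts for brains (n = 32) and 10.1 to 22.63 M for ovaries (n = 31; M, 1000000). Of 11 gene lists meant to check tissues and chemosensory genes, 2 had a match in the gene table, so the tissue labels rest on 1 gene here. That gene was LOC105200757, the vitellogenin receptor gene, through whose product oocytes take up yolk protein. It stood at 12.9 to 563 CPM (counts per 1000000) in the ovary and 0.0 to 18.8 CPM in the brain. Its ranges met, with medians of 63.1 and 5.34 CPM.

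LOC105203994 was a high-level gene of the brain and a trace transcript of the ovary in every animal. Levels are given as CPM scaled with TMM factors, which correct library sizes for differences in composition between libraries. In the brain the 32 libraries ranged from 776 to 2907 CPM, with a median of 1529. In the ovary the 31 libraries ranged from 0.560 to 5.35 CPM, with a median of 2.48. The lowest brain value was far above the highest ovary value, so the tissues did not overlap. Within each of the 31 animals with both libraries the brain level was 260 to 2709 times the ovary level, with a median ratio of 627. In a paired fit with the animal as a block, the brain minus ovary difference was 9.60 ± 0.16 on the log2 scale (SE), a 778-fold difference with a 95% interval of 617 to 980. Both members passed the filter on low counts used for the values given here. The adjusted p was 6.02e-30 with edgeR's quasi-likelihood test and Benjamini-Hochberg adjustment over 11793 genes. Of these genes 82.0% passed the same test in either direction and 37.2% were higher in the brain, and the ranges of 12.6% did not overlap between the tissues. LOC105203994 had the second-smallest p of all genes tested, and 0.772% of genes had a larger brain excess. In bulk tissue, fewer cells of a type and less RNA per cell cannot be told apart.

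LOC105195107 was also higher in the brain, by a smaller margin and with far more scatter. Its brain libraries ranged from 2.23 to 85.9 CPM, with a median of 23.3. Its ovary libraries ranged from 0.304 to 21.2 CPM, with a median of 1.88. The tissues overlapped between 2.23 and 21.2 CPM, and the brain was the higher tissue in 30 of 31 animals. The exception was the Sb/Sb gyne 19G, with 10.6 CPM in the brain and 21.2 CPM in the ovary, a ratio of 0.499. The highest ratio was 83.5, in the monogyne gyne 235A. The paired difference was 3.18 ± 0.35 on the log2 scale (SE), or 9.05-fold with a 95% interval of 5.49 to 14.9 (adjusted p = 8.89e-10, edgeR, n = 31 animals). Of all genes, 9.58% had a larger brain excess. No transcript lengths came with the counts, so the levels of LOC105203994 and LOC105195107 are not compared with each other.

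**Figure D1:**
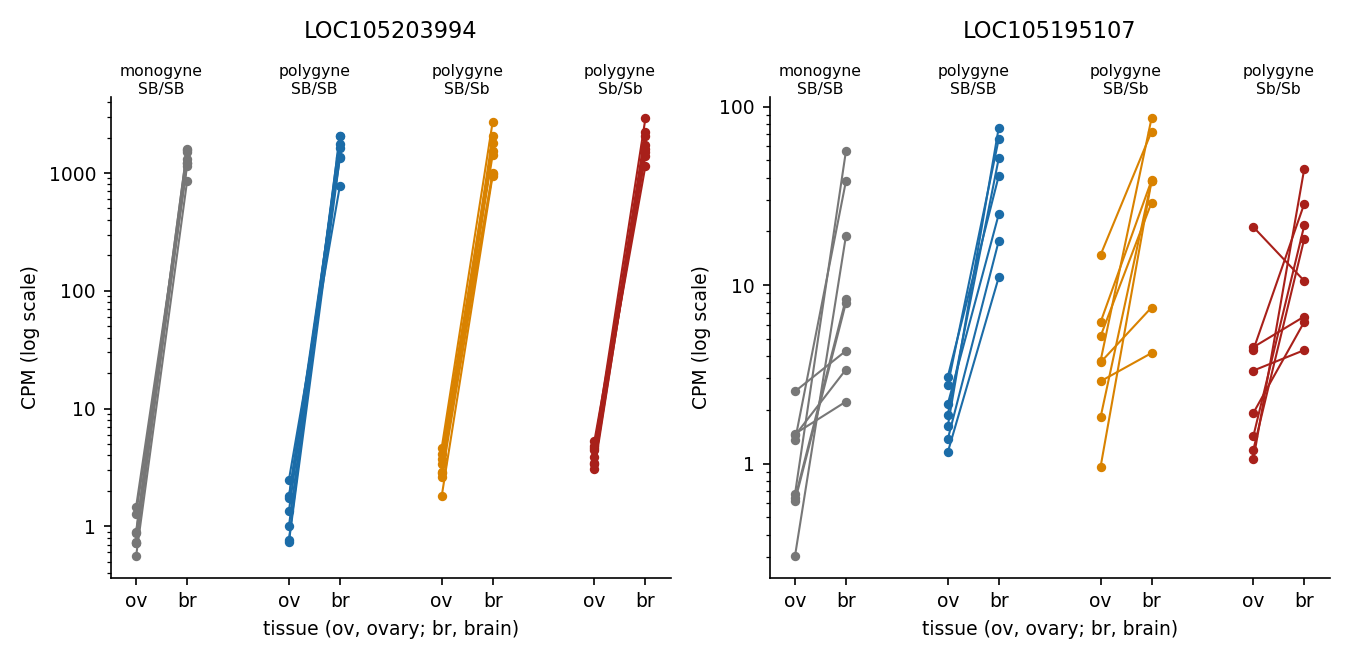
Level of each gene in the ovary and the brain of 31 gynes, in CPM on a log axis; each line joins the libraries of an animal, grouped by social form and genotype. Lines for LOC105203994 rise in every animal, by 260 to 2709 times; those for LOC105195107 rise in 30 of 31.

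None of the brain comparisons run for LOC105203994 passed the test. Monogyne SB/SB brains ranged from 850 to 1602 CPM, with a median of 1274 and a mean of 1302 ± 253 (SD, n = 8). Polygyne SB/SB brains ranged from 776 to 2074 CPM, with a median of 1701 and a mean of 1605 ± 437 (SD, n = 8). The lowest of these, gyne 1E, was the lowest brain of all after TMM scaling. Without scaling it stood at 883 CPM, above the SB/Sb gyne 30A at 776 and the monogyne gyne 207A at 828 CPM. Polygyne SB/Sb brains ranged from 951 to 2707 CPM, with a median of 1485 and a mean of 1557 ± 613 (SD, n = 8). Sb/Sb brains ranged from 1148 to 2907 CPM, with a median of 1666 and a mean of 1826 ± 561 (SD, n = 8). All 4 ranges overlapped. The largest log2 change among the comparisons run was 0.33 ± 0.23 (SE), for polygyne SB/SB over monogyne SB/SB, with a 95% interval of −0.15 to 0.81 (adjusted p = 0.439, edgeR). Between genotypes within polygyne colonies, SB/Sb against SB/SB gave −0.03 with an interval of −0.51 to 0.44. Sb/Sb against SB/SB gave 0.20 with an interval of −0.28 to 0.67. Sb/Sb was not compared with monogyne SB/SB, the group with the lowest mean.

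LOC105195107 varied more between brains of the same group than between groups. Monogyne SB/SB brains ranged from 2.23 to 56.4 CPM, with a median of 8.19 and a mean of 17.5 ± 19.7 (SD, n = 8). Polygyne SB/SB brains ranged from 11.1 to 76.2 CPM, with a median of 35.9 and a mean of 39.9 ± 23.1 (SD, n = 8). None of the polygyne SB/SB brains was as low as the 5 lowest monogyne brains. Polygyne SB/Sb brains ranged from 4.16 to 85.9 CPM, with a median of 38.3 and a mean of 39.3 ± 28.3 (SD, n = 8). Sb/Sb brains ranged from 4.33 to 45.0 CPM, with a median of 14.4 and a mean of 17.7 ± 14.0 (SD, n = 8). Means of the polygyne SB/SB and SB/Sb groups were above those of the monogyne and Sb/Sb groups, and all ranges overlapped. The log2 change was 1.24 ± 0.61 (SE) for polygyne over monogyne SB/SB gynes, a 2.37-fold difference with an interval of 0.996 to 5.64 (adjusted p = 0.272, edgeR). For Sb/Sb against SB/SB it was −1.15 ± 0.61 (SE), with an interval of −2.40 to 0.10 (adjusted p = 0.353). An exact two-sided permutation test of the means gave an unadjusted p of 0.0361 for the latter.

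Neither gene was called in any brain comparison at an adjusted p under 0.05. The share of the 10704 brain-tested genes called was itself small. It was 0.00934% for polygyne SB/SB against monogyne SB/SB, 0.252% for SB/Sb against SB/SB, 0.159% for Sb/Sb against SB/Sb, 0.962% for Sb/Sb against SB/SB and 0.215% for polygyne SB/Sb against monogyne SB/SB. The SB/Sb level set against the mean of both homozygotes was called for 0.0561% of genes and for neither of the odorant-binding protein genes.

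**Figure D2:**
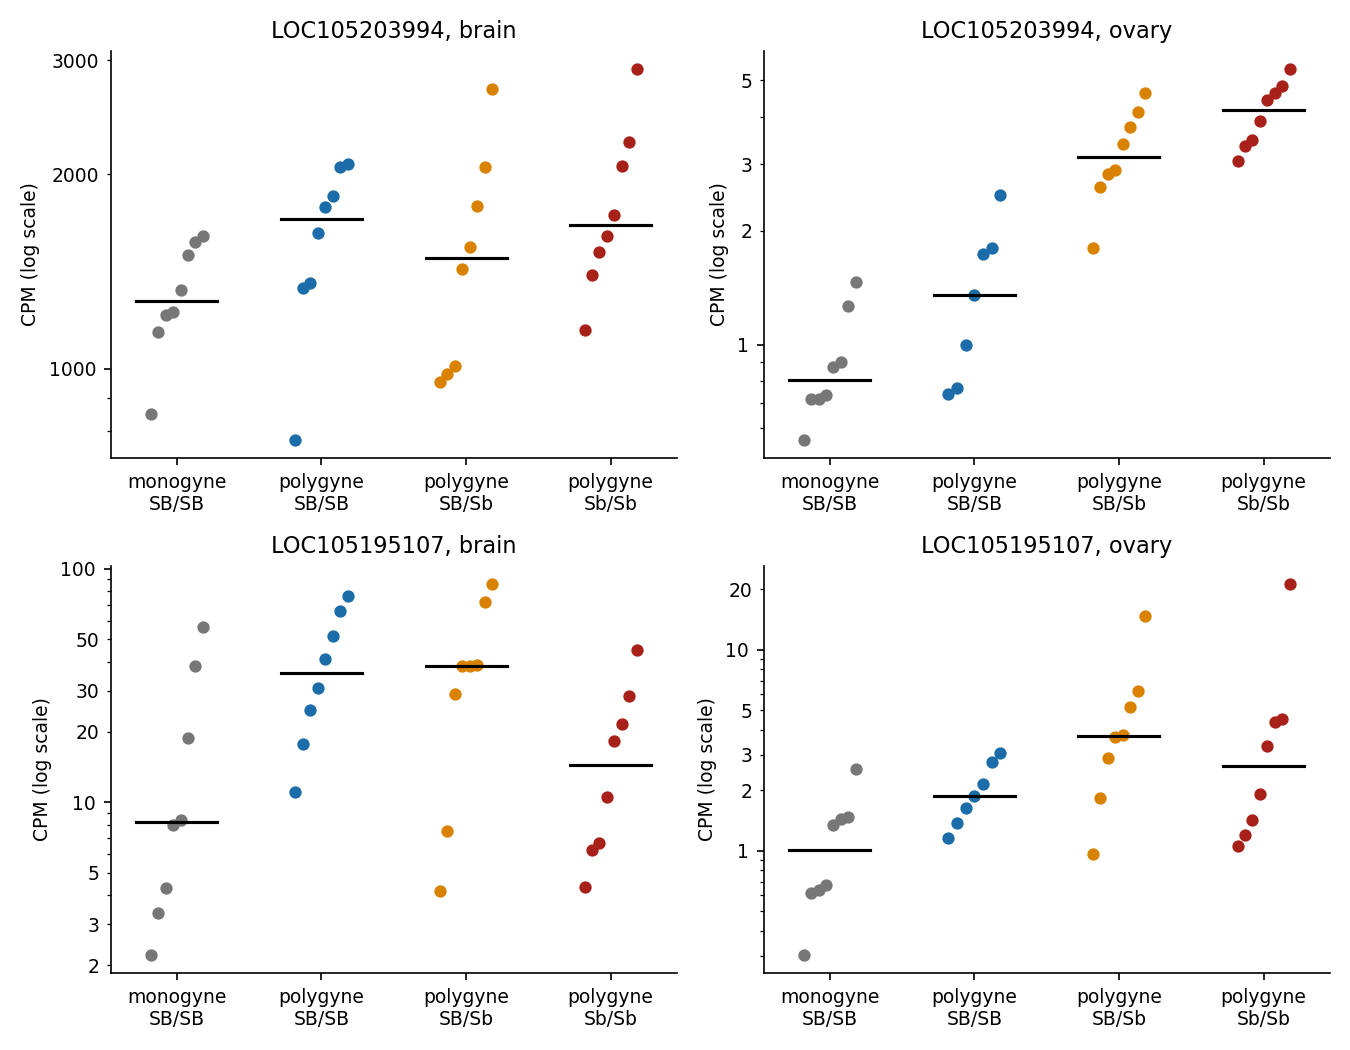
CPM of LOC105203994 and LOC105195107 in each brain and ovary library by group, on log axes; points are libraries and bars are medians. The LOC105203994 ovary medians run from 0.805 CPM in monogyne SB/SB to 4.16 CPM in Sb/Sb, while its brain ranges overlap in all 4 groups.

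In the ovary, LOC105203994 was higher in carriers of the Sb supergene variant. Monogyne SB/SB ovaries ranged from 0.560 to 1.46 CPM, with a median of 0.805 and a mean of 0.905 ± 0.308 (SD, n = 8). Polygyne SB/SB ovaries ranged from 0.738 to 2.48 CPM, with a median of 1.35 and a mean of 1.41 ± 0.639 (SD, n = 7). The highest of these was again gyne 1E, whose brain was the lowest after TMM scaling only. Polygyne SB/Sb ovaries ranged from 1.80 to 4.63 CPM, with a median of 3.14 and a mean of 3.25 ± 0.906 (SD, n = 8). Sb/Sb ovaries ranged from 3.06 to 5.35 CPM, with a median of 4.16 and a mean of 4.13 ± 0.805 (SD, n = 8). These levels rest on few reads, from 8 to 127 per library. The 8 reads of the lowest library have an exact 95% Poisson interval of 3.454 to 15.76, and the 127 of the highest one of 105.9 to 151.1. Such intervals cover counting error only, since PCR copies are not independent molecules.

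SB/Sb ovaries exceeded polygyne SB/SB ovaries 2.28-fold, with a 95% interval of 1.54 to 3.36 (log2 1.19 ± 0.28 SE, adjusted p = 0.0158, edgeR). By this test 1.66% of 10797 genes were called and 1.53% were higher, the ranges of 0.769% did not overlap, and 4.43% had a larger log2 change. Of the 8 SB/Sb ovaries, 7 lay above every polygyne SB/SB ovary. The exception was gyne 20A at 1.80 CPM. Without TMM scaling gyne 1E rose to 3.29 CPM, and 5 of 8 lay above. Fitted on the 15 libraries of these groups alone, the change was the same size and missed the threshold (log2 1.19, adjusted p = 0.124).

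Sb/Sb ovaries exceeded polygyne SB/SB ovaries 2.87-fold, with a 95% interval of 1.94 to 4.25 (log2 1.52 ± 0.28 SE, adjusted p = 0.000548, edgeR). In this comparison 14.1% of genes were called and 8.21% were higher. The ranges did not overlap after TMM scaling, which held for 2.58% of genes. Without it the lowest Sb/Sb ovary, at 3.09 CPM, fell below gyne 1E. Leaving out each ovary in turn gave log2 changes of 1.42 to 1.75, all called.

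Polygyne SB/Sb ovaries exceeded monogyne SB/SB ovaries 3.69-fold, with a 95% interval of 2.51 to 5.41 (log2 1.88 ± 0.27 SE, adjusted p = 4.03e-05, edgeR). Here 22.2% of genes were called and 15.2% were higher, and LOC105203994 was 26th of 10797 genes by p. The ranges did not overlap, as for 3.8% of genes, and this also held without TMM scaling. This comparison differs in both social form and genotype, which cannot be told apart in it. The 3 comparisons share groups and are not independent of each other.

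Differences next to these were not called. Polygyne SB/SB over monogyne SB/SB gave a log2 change of 0.70 ± 0.28 (SE), with a 95% interval of 0.13 to 1.26 (adjusted p = 0.137, edgeR), where 1.05% of genes were called. Sb/Sb over SB/Sb gave 0.33 ± 0.26 (SE), with an interval of −0.19 to 0.86 (adjusted p = 0.774), where 0.139% were called. The SB/Sb level stood 0.43 ± 0.22 (SE) above the mean of both homozygotes on the log2 scale (adjusted p = 0.9999), where 0.12% were called. In order of level the ovary groups were therefore Sb/Sb, SB/Sb, polygyne SB/SB and monogyne SB/SB. The step between SB/Sb and polygyne SB/SB was the one between neighbours that passed the test in the main fit. It was not called with only those groups fitted (adjusted p = 0.124, edgeR). With the number shared by the codes of polygyne animals as a block, it was not called either (log2 1.32, adjusted p = 0.0686, edgeR). The polygyne libraries without that block kept the call (adjusted p = 0.0359, edgeR). The steps were not tested against each other.

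The ovary means of LOC105195107 were higher in SB/Sb and Sb/Sb than in both SB/SB groups, with a far higher library in each of SB/Sb and Sb/Sb. Monogyne SB/SB ovaries ranged from 0.304 to 2.54 CPM, with a median of 1.01 and a mean of 1.13 ± 0.721 (SD, n = 8). Polygyne SB/SB ovaries ranged from 1.16 to 3.07 CPM, with a median of 1.88 and a mean of 2.001 ± 0.705 (SD, n = 7). These groups overlapped, with 2 of 7 polygyne ovaries above every monogyne one. Polygyne SB/Sb ovaries ranged from 0.959 to 14.8 CPM, with a median of 3.73 and a mean of 4.91 ± 4.33 (SD, n = 8). Sb/Sb ovaries ranged from 1.05 to 21.2 CPM, with a median of 2.62 and a mean of 4.87 ± 6.73 (SD, n = 8). Gyne 15A, at 14.8 CPM, and gyne 19G, at 21.2 CPM, stood far above the rest of their groups, and the remaining libraries of both groups reached 6.21 CPM. Counts were 6 to 348 per library.

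LOC105195107 was called for polygyne SB/Sb over monogyne SB/SB, a 4.47-fold difference with a 95% interval of 1.99 to 10.1 (log2 2.16 ± 0.57 SE, adjusted p = 0.0108, edgeR). In this comparison, which differs in both social form and genotype, 22.2% of genes were called and 15.2% were higher. LOC105195107 was 684th of 10797 genes by p. Of the 8 SB/Sb ovaries, 6 lay above every monogyne ovary. Without gyne 15A the log2 change was 1.68 (adjusted p = 0.0341). SB/Sb over polygyne SB/SB gave 1.26 ± 0.58 (SE, adjusted p = 0.363), which was 0.79 without gyne 15A. Sb/Sb over polygyne SB/SB gave 1.22 ± 0.58 (SE, adjusted p = 0.155), which was 0.32 without gyne 19G. Polygyne SB/SB over monogyne SB/SB gave 0.90 ± 0.58 (SE, adjusted p = 0.382). Sb/Sb against SB/Sb gave −0.04 with an interval of −1.15 to 1.06. The SB/Sb level against the mean of both homozygotes gave 0.65 ± 0.47 (SE, adjusted p = 0.9999).

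**Figure D3:**
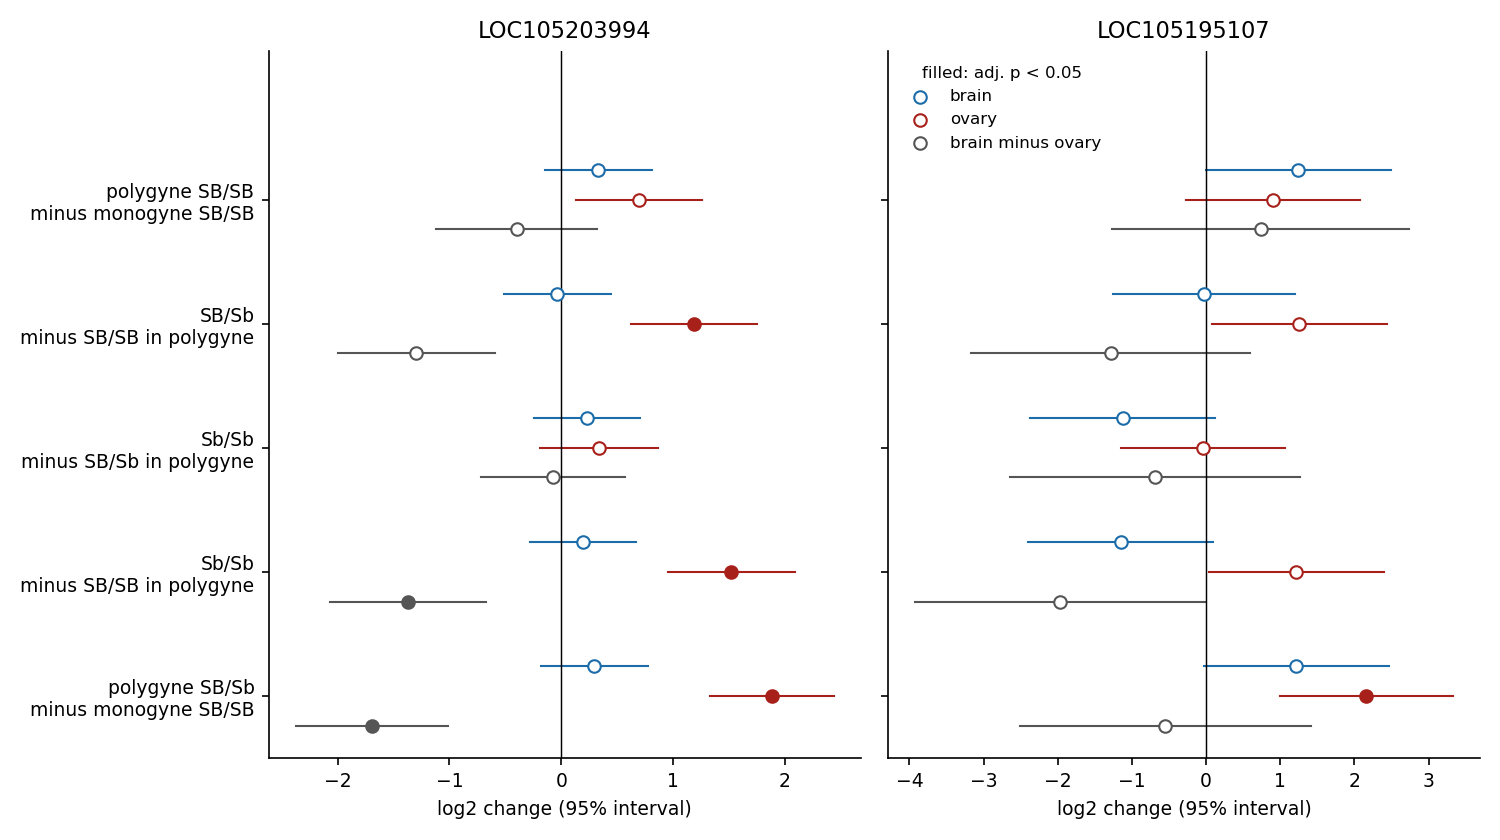
Fitted log2 changes of both genes with 95% intervals for the brain, the ovary and the brain change minus the ovary change; filled points have an adjusted p under 0.05. For LOC105203994 the ovary changes of 1.19, 1.52 and 1.88 are filled and no brain change is.

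The ovary change of LOC105203994 differed from its brain change in 2 of 6 contrasts of the paired fit, both of which set SB/SB gynes against carriers of Sb. One of them, polygyne SB/Sb against monogyne SB/SB, also differs in social form, which cannot be told apart from genotype there. In the paired fit the brain effect minus the ovary effect of Sb/Sb against SB/SB was −1.37 ± 0.34 (SE) on the log2 scale, with a 95% interval of −2.07 to −0.67 (adjusted p = 0.0166, edgeR). Of 11793 genes, 6.76% were called in this contrast. Leaving out each animal in turn gave −1.69 to −1.18, all called. These fits kept the filter, TMM factors and trend of count dispersion of the full paired fit. For polygyne SB/Sb against monogyne SB/SB the difference was −1.69 ± 0.33 (SE), with an interval of −2.37 to −1.02 (adjusted p = 0.0305). In that contrast 0.0509% of genes were called, 6 in all, and LOC105203994 was the sixth by p. This call was lost on leaving out any of 9 animals, the SB/Sb gynes 15A, 16C, 20A and 5A and the monogyne gynes 222A, 232A, 235A, 239A and 240A. The log2 values stayed between −1.83 and −1.58 and the adjusted p reached 0.112. For SB/Sb against polygyne SB/SB the difference was −1.30 ± 0.34 (SE, adjusted p = 0.278), where 0.0254% of genes were called. Without gyne 1E it was −1.61 and was called (adjusted p = 0.0260). Polygyne SB/SB against monogyne SB/SB gave −0.40 ± 0.35 (SE) and Sb/Sb against SB/Sb −0.08 ± 0.32 (SE). SB/Sb against the mean of both homozygotes gave −0.61 ± 0.28 (SE). In these contrasts edgeR called 0 of the 11793 genes, with 679, 1129 and 296 at an unadjusted p under 0.05, and DESeq2 called 10, 16 and 1. No such difference was called for LOC105195107. Its largest was −1.97 ± 0.96 (SE), for Sb/Sb against SB/SB, with an interval of −3.92 to −0.02 (adjusted p = 0.203).

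The tissue ratio of LOC105203994 moved with these changes. The median brain to ovary ratio was 1725 in monogyne SB/SB, 1319 in polygyne SB/SB, 475 in SB/Sb and 508 in Sb/Sb gynes. The fitted log2 differences were 10.57 ± 0.33, 10.17 ± 0.35, 8.88 ± 0.31 and 8.80 ± 0.30 (SE) in the same order. All were called, against a background of 67.3%, 64.0%, 63.2% and 64.6% of genes. For LOC105195107 they were 3.44 ± 0.74, 4.18 ± 0.72, 2.89 ± 0.68 and 2.21 ± 0.71 (SE), also all called. Its median ratios were 13.1, 13.3, 5.91 and 4.92.

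Ovary levels of other brain-abundant genes were set beside those of LOC105203994. The set of genes with a mean of at least 500 CPM in the brain and under 1% of that level in the ovary held 40 genes, LOC105203994 among them, and was defined after the values were seen. LOC105203994 had the 25th-lowest ovary share of the 40, at 0.156% of its brain level. The summed ovary level of the other 39 was 38.7 to 57.6 CPM in monogyne SB/SB, 44.6 to 54.9 in polygyne SB/SB and 49.8 to 90.3 in SB/Sb ovaries. In Sb/Sb ovaries it was 53.1 to 1191 CPM. The group medians were 46.7, 50.9, 62.4 and 78.2 CPM, in the same group order as for LOC105203994. Of the 40, 26 were tested in the ovary, LOC105203994 included. By edgeR 2 were higher in SB/Sb than in SB/SB, 6 were higher and 1 was lower in Sb/Sb than in SB/SB, and 5 were higher in SB/Sb than in monogyne SB/SB. LOC105203994 was among the higher genes each time, which leaves 1, 5 and 4 others, and over all genes tested 1.53%, 8.21% and 15.2% were higher. The median log2 changes of the 26 were 0.30, 0.67 and 0.59, against −0.01, 0.01 and 0.07 over all genes tested. A gene of low ovary level can pass the filter on low counts through a group where it is higher. The medians of the 26 may therefore lean upward. The part of brain-abundant genes in the ovary result was not tested.

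The ovaries with the highest and second-highest sums of the other brain-abundant genes did not have the highest levels of LOC105203994. The highest sum, 1191 CPM in the Sb/Sb gyne 5G, came with 4.42 CPM of LOC105203994, near its group median, and LOC105193375 alone made up 478 CPM of it. The next, 282 CPM in gyne 19G, came with 3.47 CPM. The sums that followed were 94.8 CPM in 15G, 90.3 in 15A and 82.6 in 107G. They came with 4.64, 4.11 and 4.82 CPM of LOC105203994, each above its group median. The lowest sums of the SB/Sb and Sb/Sb ovaries were 49.8 CPM in gyne 20A and 53.1 CPM in gyne 20I. These gynes also had the lowest LOC105203994 of their groups, at 1.80 and 3.06 CPM. The highest LOC105203994 of these groups, 4.63 CPM in 104A and 5.35 CPM in 16G, came with sums of 61.3 and 65.7 CPM. The relation over libraries was not tested. For LOC105195107, gyne 5G had 1.92 CPM, while 19G and 15A, with the second-highest sum of the Sb/Sb and the highest sum of the SB/Sb ovaries, were its highest libraries. Without gyne 5G the Sb/Sb to SB/SB change of LOC105203994 was 1.54 and without 19G it was 1.56 on the log2 scale, both called.

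**Figure D4:**
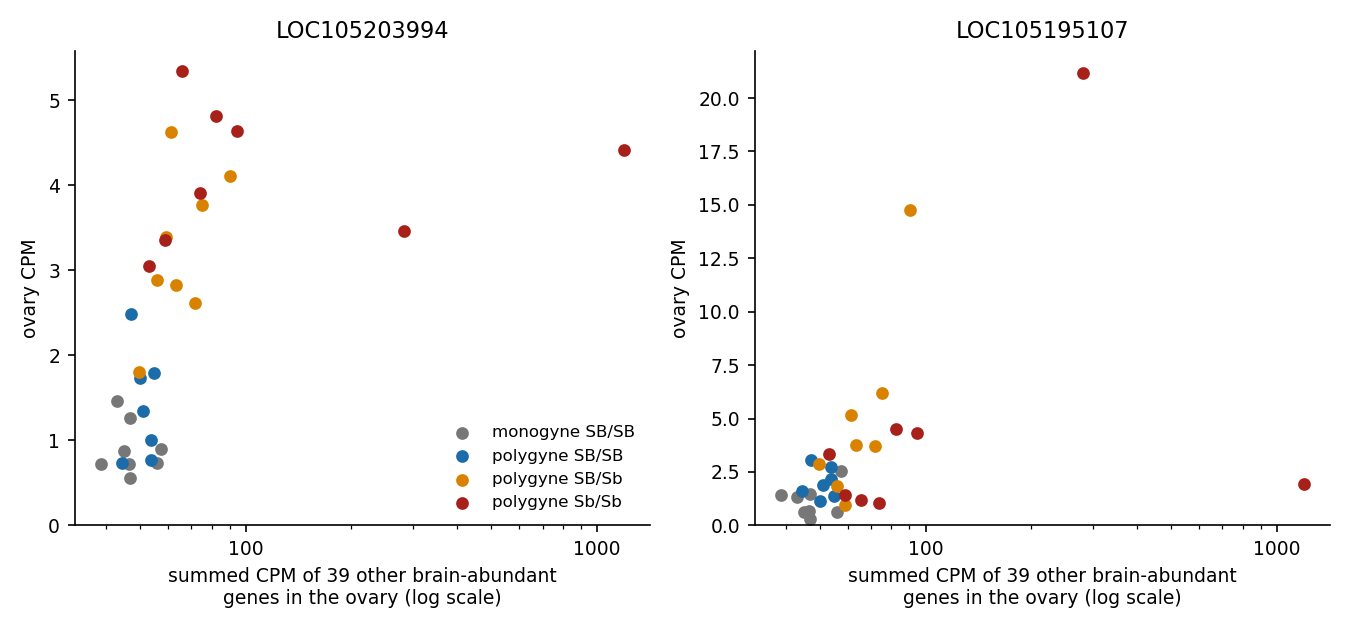
Ovary CPM of each gene against the summed ovary CPM of the 39 other brain-abundant genes (log axis), 1 point per library, coloured by group. The Sb/Sb gynes 5G (1191 CPM) and 19G (282 CPM) lie far to the right; LOC105203994 is 4.42 and 3.47 CPM in them.

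The genes differed in how evenly they were expressed among animals of a group. The within-group SD of LOC105195107 in the brain was 1.31 on the log2(CPM + 0.5) scale. It exceeded that of 93.9% of the 2880 genes with a mean level within a factor of 2, whose median SD was 0.667. In the ovary its SD was 0.899, above 78.3% of 1513 such genes. LOC105203994 had an SD of 0.445 in the brain, above 36.9% of 168 genes of like level. In the ovary its SD was 0.354, and 2.68% of 1457 genes of like level varied less. The ovary SD of LOC105195107 was 1.02 in SB/Sb and 1.25 in Sb/Sb, which hold gynes 15A and 19G. In polygyne SB/SB ovaries it was 0.405, against 0.478 for LOC105203994.

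No relation between an animal's brain and ovary levels was detected for either gene over all animals together. Over 31 animals, with values centred on their group means, the brain and ovary levels of LOC105203994 had a Pearson r of −0.02 and a Spearman rho of −0.02 (permutation p = 0.895 and 0.913, both also after adjustment over the 4 relations computed). For LOC105195107 r was −0.08 and rho −0.08 (permutation p = 0.655 and 0.661, adjusted 0.895 and 0.913). Between the genes, the brain levels of 32 animals had an r of 0.39 and a rho of 0.36 (permutation p = 0.0265 and 0.0438, adjusted 0.106 and 0.175). Within groups that r was 0.31 in monogyne SB/SB, −0.03 in polygyne SB/SB, 0.63 in SB/Sb and 0.54 in Sb/Sb. Without the gynes farthest from the median, 1E and 104A, it was 0.49 (permutation p = 0.00647, adjusted 0.0259). In the ovary the genes had an r of 0.04 and a rho of 0.03 over 31 animals (permutation p = 0.838 and 0.857, adjusted 0.895 and 0.913). Without the farthest animals r was 0.05 and −0.10 for the brain to ovary relations and −0.04 for the ovary.

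Polygyne animals carry codes that start with a number shared by up to 3 animals, 1 of each genotype, and the labels do not say what it marks. In the brain, all 3 animals of number 104 and all 3 of number 15 were above their group means for LOC105203994, at 1848 to 2707 and 1787 to 2907 CPM. All 3 of number 20 were below, at 951 to 1730 CPM. Thus 3 of the 7 numbers with all genotypes lay on 1 side. LOC105195107 had 2 of 7, number 15 above at 28.6 to 72.4 CPM and number 20 below at 4.16 to 17.7 CPM. Numbers 15 and 20 were on the same side for both genes. In the ovary 1 of 6 numbers lay on 1 side for LOC105203994 and 2 of 6 for LOC105195107. Some numbers would lie on 1 side by chance, and whether these counts exceed that was not tested.

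**Figure D5:**
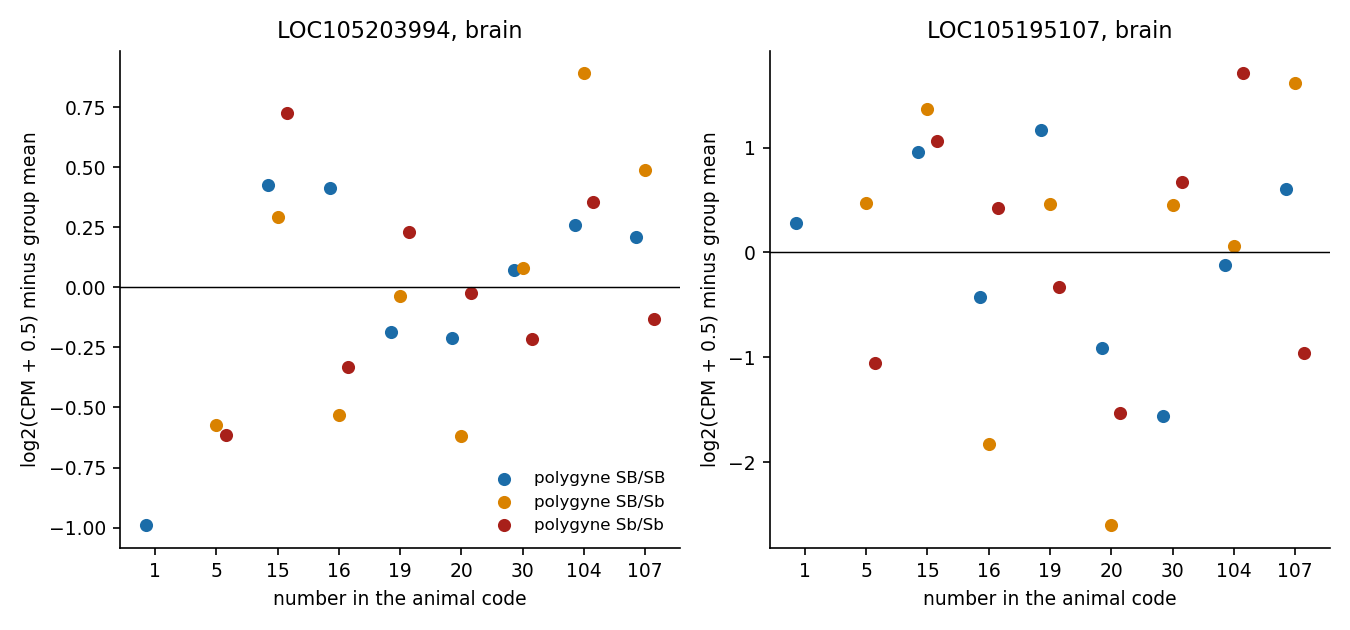
Brain level of each gene in the 24 polygyne gynes as log2(CPM + 0.5) minus the group mean, by the number in the animal code; colours are genotypes. Number 15 lies above 0 and number 20 below 0 in all 3 genotypes for both genes.

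The genes with the most similar pattern over libraries of a tissue were found by Pearson r of log2(CPM + 0.5), among genes with a mean of at least 5 CPM. The points share library depth and composition, so the values are descriptions. In the 32 brains LOC105203994 was closest to LOC105201583 on chromosome 15 (r = 0.94), LOC105193164 (0.92), LOC105200149 (0.92), LOC105207997 (0.92) and LOC105194061 (0.92). LOC105201583 ranged from 376 to 1356 CPM in the brain and averaged 0.596 CPM in the ovary, so it too was far higher in the brain. Of 8251 genes, 101 had an r of at least 0.8 with LOC105203994. None reached 0.8 with LOC105195107 in the brain and 7 reached 0.6. Its closest were LOC105203025 (r = 0.78), LOC105200209 (0.72), LOC105201508 (0.65), LOC105205889 (0.63) and LOC105198420 (0.62). LOC105203025 ranged from 2.81 to 334 CPM between brains and averaged 0.0583 CPM in the ovary.

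In the 31 ovaries LOC105203994 was closest to LOC105206128 (r = 0.92), LOC105207180 (0.90) and LOC105206169 (0.90). After centring on group means the r values were 0.63, 0.31 and 0.52. LOC105207180 was called in the ovary for SB/Sb over SB/SB (log2 1.14, adjusted p = 0.000280, edgeR) and for Sb/Sb over SB/SB (log2 1.82, adjusted p = 4.09e-08). LOC105206169 was called in both (adjusted p = 0.0124 and 7.86e-05, edgeR) and LOC105206128 in the second only (adjusted p = 0.119 and 0.00115). Over all genes tested 1.66% and 14.1% were called. These genes were picked by r over the same libraries, group differences included, so such calls follow in part from the choice. LOC105195107 was closest to LOC105200008 (r = 0.85), LOC105202623 (0.82) and LOC105197518 (0.81), with centred values of 0.82, 0.74 and 0.80. LOC105200008 ranged from 1.59 to 283 CPM between ovaries.

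The genes next to each member in the gene table were examined in the same tests. Of the 6 nearest neighbours of LOC105203994, 5 were in the files, and none was called in any of the 6 comparisons run in each tissue by edgeR. Of the 6 neighbours of LOC105195107, 1 was called, LOC105195105 in the ovary for polygyne SB/Sb against monogyne SB/SB, the comparison with 22.2% of all genes called. In the gene table LOC105195107 lies wholly within the span of LOC105195108. Whether their exons overlap was not checked. How reads shared by both genes were counted is not given, so counts of both are uncertain. LOC105195108 averaged 3.17 CPM in the brain and 9.42 CPM in the ovary, and its r with LOC105195107 was −0.02 and −0.01 over brains and ovaries. RefSeq lists 3 RefSeq transcripts for LOC105203994 and 2 for LOC105195107, which gene-level counts do not separate.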

How the data were processed

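Each file holds whole-number read counts per gene for a single library, deposited by the authors without normalization. Per the submitters' processing notes, reads were processed with Trimmomatic 0.32, STAR 2.5.3a and featureCounts; the featureCounts version, the genome build and the strand setting are not given in the sources used here. Per the labels, libraries followed Smart-seq2, which has no molecular identifiers. Gene names and neighbours come from the RefSeq gene table of UNIL_Sinv_3.0, which matched 11895 of 15512 LOC symbols, and no coordinates are given because the build of the files is unknown.

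Both genes, the gene lists and the tests were chosen with earlier results of these data known. Counts were tested with edgeR 4.0.16 in R 4.3.3 (TMM factors, filterByExpr at a minimum count of 10, quasi-likelihood test, Benjamini-Hochberg adjustment over all genes, call at an adjusted p under 0.05). All groups of a tissue entered 1 fit. Tissues were compared in a fit of 62 libraries with the animal, read from the title code, as a block. SE is the log2 change divided by the root of F. Printed CPM uses TMM factors computed over the 63 libraries together. The replicates are separate animals, per the labels. Depth was 9.465 to 26.95 M counts (M, 1000000), so a level of 1 CPM before scaling is 9.465 to 26.95 reads. Alternatives were RLE factors, other filters, DESeq2 1.42.0 (outlier replacement off), library total as a covariate, only the groups compared, title number as a block, exact permutation tests and leaving out each animal. Paired fits without an animal kept the filter, TMM factors and trend of count dispersion of all 62 libraries. The self-check of the fits used simulated counts. Named genes were both members, the 5 (brain) or 3 (ovary) most similar genes, and neighbours called; relatives by protein sequence were not searched.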

Additional observations from a re-analysis of the deposited data

Results flagged for a closer look

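Among 16 groups of a gene in a tissue, 2 held a library far from the others, and chance flags about 1 in 20 groups of normally distributed values, which CPM need not be. The SB/Sb gyne 15A had 14.8 CPM of LOC105195107 in the ovary, where the next library of its group had 6.21 CPM. The Sb/Sb gyne 19G had 21.2 CPM, where the next had 4.49 CPM. The group effect on LOC105203994 differed between brain and ovary for Sb/Sb against SB/SB, by −1.37 on the log2 scale (adjusted p = 0.0166, edgeR). It also differed for polygyne SB/Sb against monogyne SB/SB, by −1.69 (adjusted p = 0.0305).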

How the results depend on the processing

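Of 300 member values under settings other than leaving out a library, 295 kept their side of the threshold. Uncalled values near 0 could change direction. For LOC105195107 in the ovary, Sb/Sb against SB/Sb was −0.04 in the main fit and −0.36 to 0.0093 under alternatives. The ovary change of LOC105203994 for SB/Sb over SB/SB fell short with only those groups fitted (log2 1.19, adjusted p = 0.124). With the title number as replicate block, fitted on polygyne libraries, it was 1.32 (adjusted p = 0.0686), against 1.19 (adjusted p = 0.0359) in those libraries without the block, a setting chosen after seeing the data. Same-numbered libraries did not all deviate together, though their median correlation was higher than that of other pairs. It was 0.0889 in the brain and 0.336 in the ovary, against −0.0155 and −0.02 for other pairs. Of same-numbered pairs, 11 of 22 in the brain and 14 of 20 in the ovary correlated above 0.1. Among single libraries, 9 of 23 brains and 7 of 22 ovaries correlated best with their own number. The block changed no other call of either gene. In the polygyne libraries the ovary gene counts were 91 with it and 132 without for SB/Sb over SB/SB, and 959 with it and 860 without for Sb/Sb over SB/SB. Unadjusted exact permutation tests of LOC105195107 passed for the brain Sb/Sb against SB/SB (log2 −1.17, p = 0.0361), the ovary SB/Sb over SB/SB (1.30, p = 0.0348) and the ovary polygyne SB/SB over monogyne (0.83, p = 0.0364). Leaving out each animal kept 1118 of 1128 values on their side, some of them from paired fits that were refitted only in part. The brain minus ovary effect of LOC105203994 ranged from −1.83 to −1.58 for SB/Sb against monogyne. For SB/Sb against SB/SB its range was −1.61 to −1.10. The correlation of both genes was 0.49 in the brain without the farthest animals, and 0.49 in the ovary when not centred on group means (adjusted p = 0.0158).

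The number of genes called ranged widely with the setting. In the ovary it was 113 (42 without a filter, 1050 with only the groups compared) for polygyne SB/SB against monogyne, 179 (80 to 346) for SB/Sb over polygyne SB/SB and 1521 (675 to 1987) for Sb/Sb over polygyne SB/SB. In the brain it was 1 (0 to 326), 27 (12 to 36) and 103 (77 to 574) in the same comparisons. For the brain minus ovary effects it was 797 (662 to 1803) for Sb/Sb against SB/SB, 6 (6 to 98) for SB/Sb against monogyne and 3 (3 to 47) for SB/Sb against SB/SB. Counts for Sb/Sb over SB/Sb were 17 (10 to 26) in the brain, 15 (6 to 48) in the ovary and 0 (0 to 16) for the effect difference, and polygyne against monogyne SB/SB had 0 (0 to 10) for the latter. SB/Sb over monogyne had 23 (13 to 60) in the brain. SB/Sb off the mean of homozygotes had 6 (3 to 11) in the brain and 13 (8 to 27) in the ovary. With a mean count of at least 50, LOC105203994 could not be fitted in the ovary. Brain minus ovary log2 values over all genes had a median of −0.16, which scaling by RLE factors left at −0.16. Leaving out animals was not run for the tissue difference within single groups. At 8 to 127 reads a library, ovary changes well under 2-fold in LOC105203994 are within the intervals given.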
